A study of Mus musculus with 4 samples.

Results

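Genes of bone formation and mineral deposition were followed in cultured cells of the mouse shoulder joint capsule that carried or lacked the microRNA miR-26a. The group holds 9 genes of the 16416 in the expression table, all found by their symbol: the transcription factors Runx2, Dlx5 and Sp7, the matrix proteins Spp1, Ibsp and Bglap, and the mineralization enzymes Enpp1, Alpl and Phex. The rule that selects them uses name and function, not measured values, though the genes were chosen with earlier results of these data known. RNA sequencing gave 4 libraries, 1 per group. The wild-type library came from cells of C57BL6/J mice, and the knockout library from cells of miR-26a -/- mice. The negative-control library came from knockout cells transfected with 10 nM Silencer Negative Control, an siRNA without an intended target, and the mimic library from knockout cells transfected with 10 nM of a double-stranded miR-26a mimic, both for 24 h. All cultures were started from pieces of capsule, removed when the shoulder had been immobilized for 1 week, and all were used at passage 2 in medium with serum, with no osteogenic medium named in the labels. Cells that grow out of a tissue piece are a mixed population. The labels give neither the age or number of the animals, nor whether animals were pooled, nor how the deletion was made, and the 3 knockout libraries share the deletion. A single library per group leaves no spread between replicates, so no p-value is given here and every difference is one between libraries.

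Bone is laid down by osteoblasts, which differentiate under Runx2 and then Sp7 (osterix), secrete a matrix of type I collagen with acidic phosphoproteins, and let mineral form in it. Mineral growth depends on the balance of phosphate and pyrophosphate: Enpp1 makes pyrophosphate, an inhibitor of mineral, and the phosphatase Alpl breaks it down. Several of these genes are also used outside bone, above all Spp1 (osteopontin), which macrophages and many other cells secrete. MicroRNAs such as miR-26a pair through a seed near their 5′ end with sites in transcripts, mostly in the 3′ untranslated region (3′ UTR), and usually lower those transcripts.

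The guide strand of the mimic is the molecule whose pairing the mimic comparison turns on, and it was identical over its 22 bases to the RefSeq mature sequence mmu-miR-26a-5p. Its seed, bases 2 to 8, is in capitals.
mimic guide strand: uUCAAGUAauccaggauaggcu
The complement of that seed, TACTTGA, was searched in the transcripts of the GENCODE M21 annotation (GRCm38). None of the 9 genes held it in an annotated 3′ UTR. Of the 15656 genes of the table with such a UTR 12.2% did, so that 0 of 9 is close to the background. The mimic is double-stranded, and the corresponding 7-base site of its other strand occurred in the 3′ UTR of 1 of the 9, Sp7, and of 10.5% of the same genes. Across all parts of their 45 transcripts there was 1 match, in an Enpp1 transcript annotated as retaining an intron. The match is at chr10:24647920-24647926 on the minus strand, bases 2348 to 2354 of 2503, and lies in an intron of the other Enpp1 transcripts. It is shown with its flanks because it is the only match, with the letters of the site in capitals.
Enpp1 site: tctgcaggTACTTGAacacaaaa
Over all genes of the table found in the annotation, 22.3% held the letters in some transcript. A match of letters is a description and not a shown binding site.

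Promoters are shown for the 3 matrix proteins, whose genes are classical markers of osteoblasts and which behaved unlike one another. Each run is the 150 bases before the RefSeq start of the gene in GRCm38.p6, 5′ to 3′ on the strand of the gene. Capitals mark 3 motifs on either strand: ACCACA, the core bound by Runx factors, TATAAA, the TATA box, and CCAAT, the CCAAT box. A motif on the opposite strand appears as its reverse complement, and no marked motif overlaps another.
Ibsp, chr5:104299137-104299286, plus strand: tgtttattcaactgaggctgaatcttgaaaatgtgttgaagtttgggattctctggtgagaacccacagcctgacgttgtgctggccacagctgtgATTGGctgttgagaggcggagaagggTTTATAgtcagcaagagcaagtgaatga
Spp1, chr5:104434961-104435110, plus strand: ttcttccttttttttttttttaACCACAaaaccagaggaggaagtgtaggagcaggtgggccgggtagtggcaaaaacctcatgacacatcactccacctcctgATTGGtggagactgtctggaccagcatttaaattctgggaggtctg
Bglap, chr3:88384467-88384616, minus strand: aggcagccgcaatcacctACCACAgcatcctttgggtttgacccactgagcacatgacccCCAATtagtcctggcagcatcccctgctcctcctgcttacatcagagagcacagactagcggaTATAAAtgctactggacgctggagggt
The Ibsp window held a TATA box and a CCAAT box, both reversed, the TATA box beginning 28 bases before the start and the CCAAT box 54 bases before it, and no ACCACA. The Bglap window held all 3 motifs in the forward direction, with ACCACA at 132, CCAAT at 90 and TATAAA at 27 bases before the start. In the Spp1 window ACCACA stood at 128 and a reversed CCAAT at 46 bases before the start. Among 32851 RefSeq promoters, each covering 250 bases before to 50 after a start, 16.8% held ACCACA, 13.6% TATAAA and 37.4% CCAAT on either strand. These shares are for a longer window than the printed 150 bases. In the longer window Spp1 also held TATAAA, 211 bases before the start, and Ibsp and Bglap held no further match. Spp1 has 2 promoters in that set, and the first is printed. Of the 9 genes 7 had a promoter in that table, all but Sp7 and Dlx5. ACCACA also occurred 80 bases before the start of Runx2, at bases 24 and 32 after it, and 144 bases before the start of Enpp1.

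Levels of the 9 genes spanned several orders of magnitude. Counts here are the authors' estimated read counts. Levels are compared between genes as TPM (transcript abundance per length and depth), which accounts for transcript length, and between libraries as CPM (counts scaled to library size) after adjustment with edgeR's TMM method. Spp1 was among the most abundant transcripts of the cells, 6th of all genes by TPM in the wild-type, knockout and mimic libraries and 8th in the negative-control library. Next came Enpp1, with 28.93 TPM in the wild-type library, and Runx2, with 13.85 TPM. Dlx5 at 7.0 TPM and Ibsp at 6.38 TPM followed in the wild-type library, and Alpl, Bglap, Sp7 and Phex were at 1.49, 1.12, 0.17 and 0.11 TPM. In the knockout library the order below Runx2 was Alpl, Dlx5 and Sp7, while Ibsp, Bglap and Phex were at 0.

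**Figure D1:**
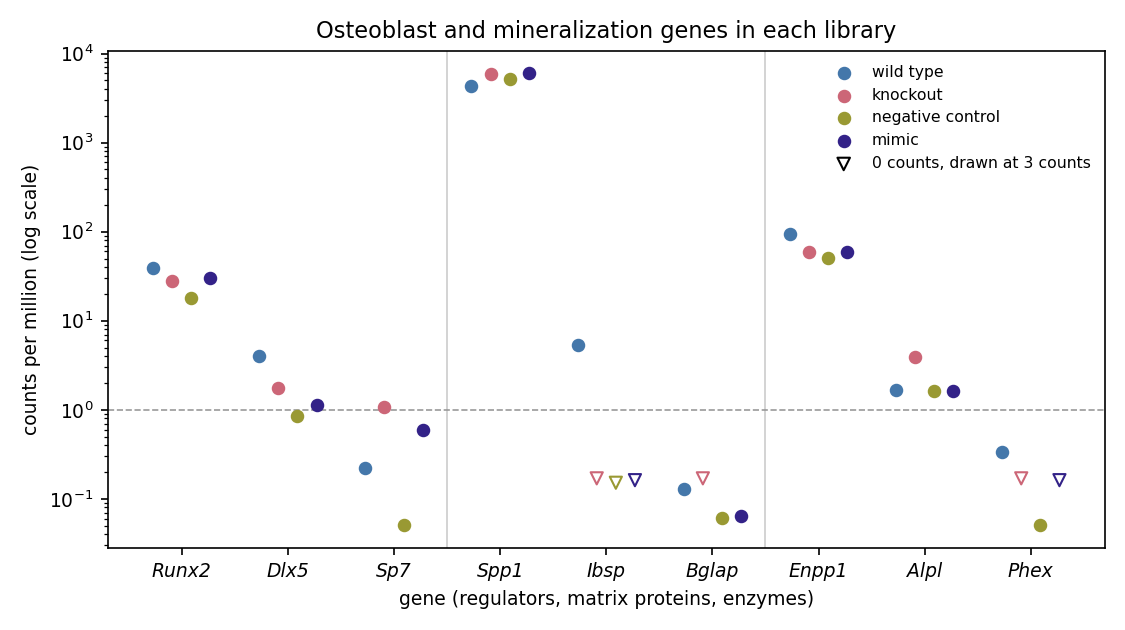
CPM (log scale) of the 9 genes in the wild-type, knockout, negative-control and mimic libraries, with 1 point per library, no error bar since no group has a replicate, open triangles at the level of 3 counts for libraries with 0 counts, and a dashed line at 1 CPM. Spp1 lies at 4325.74 CPM or more in every library, and Ibsp is at 5.39 CPM with the wild type and at 0 counts otherwise.

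A gene was taken as measured in a comparison if it reached 1 CPM in either library, and as differing if its ratio was at least 2-fold and its exact (Clopper-Pearson) 95% counting interval on the log2 scale excluded 0. The interval, printed in parentheses, covers the counting error of 2 libraries only. PCR copies of a molecule are not independent, and differences between cultures are not in it. The question of the first comparison was how the cells of knockout animals differ from those of wild-type animals. Of the 9 genes 7 were measured in it. Sp7 and Alpl were higher in the knockout library and Ibsp and Dlx5 lower, that is 2 in each direction, while Runx2, Spp1 and Enpp1 differed by less than 2-fold. Over all 12803 genes measured, 5.90% were called higher and 7.0% lower. The median log2 ratio of the 7 genes was -0.47, that of Runx2 itself, and that of all genes 0.01. The group did not differ in a single direction. Sp7 and Alpl are both under 5 CPM in every library, and neither reached 2-fold on log2(TPM + 1), a scale that understates the change of low genes.

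Ibsp, bone sialoprotein, nucleates mineral and is a marker of mature osteoblasts. It lies on chromosome 5 at 104299287 to 104311472 (GRCm38.p6). It was counted 96 times with the wild type and 0 times in each of the 3 knockout libraries. With 0 counts set to a floor of 3 counts per library, Ibsp in the knockout cells was at least 31.8-fold lower than in the wild-type library. The negative control was at least 35.6-fold lower than the wild type, and the mimic at least 33.3-fold lower. These bounds take the 96 wild-type counts as exact, and with their counting error the exact interval of knockout against wild type ends at a log2 ratio of -4.66. A count of 0 shows that the transcript was not detectable at this depth, here below 0.170 CPM in the knockout library. Transfection with the mimic left it undetected.

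Spp1, osteopontin, belongs to the same family of acidic phosphoproteins, and it starts 123.6 kb from the end of Ibsp, at 104435111 to 104441053 of chromosome 5. Unlike Ibsp, it had 77003 (wild type), 103809 (knockout), 104171 (negative control) and 111332 (mimic) counts. In TPM these were 7436.13, 9177.8, 8471.27 and 9717.25. The knockout library was higher than the wild-type library by a log2 ratio of 0.44 (0.43 to 0.46), short of 2-fold. The 3 knockout libraries lay within a narrow range, with log2 ratios of -0.16 between negative control and knockout and 0.19 (0.18 to 0.20) between mimic and negative control. The narrow interval comes from the large counts and holds no difference between cultures.

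Of the other genes on the same stretch of chromosome 5, Dmp1 also had libraries with 0 counts. Dmp1, a phosphoprotein of osteocytes, had 14 counts with the wild type, 3 with the knockout, and 0 in both transfected libraries. It was below 1 CPM throughout. Sparcl1, a matricellular protein encoded farther upstream, had 84, 86, 49 and 51 counts in the order wild type, knockout, negative control and mimic. Pkd2, a channel gene downstream of Spp1, had 4260, 2989, 3365 and 3236 counts. Dspp and Mepe, the 2 other family members at this locus, were not among the genes of the expression table, so no counts can be given for them.

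Bglap, osteocalcin, is a small calcium-binding protein of late osteoblasts, and mice have a second near-identical gene, Bglap2, beside it, together with the related Bglap3. All 3 lie on chromosome 3, Bglap at 88383495 to 88384466. Bglap had 2.29, 0, 1.2 and 1.2 estimated counts in the wild-type, knockout, negative-control and mimic libraries, too few to be measured in any comparison. Bglap2 had 20.71, 7, 4.8 and 10.8 counts in the same order, and Bglap3 had 0, 0, 4 and 1. Bglap and Bglap2 add up to whole numbers in every library, 23, 7, 6 and 12, and have decimals in all but the untransfected knockout library. Where they have decimals, reads were divided between the 2 copies, and the share of each is uncertain. Summed over the 3 copies, counts were 23 for the wild type against 7, 10 and 13 for the knockout libraries. The sum was lower in the knockout than in the wild-type library, with a log2 ratio of -1.58 (-3.17 to -0.44), and Bglap2 alone had a ratio of -1.43 (-3.05 to -0.29). In the comparisons among the knockout libraries the sum stayed under 1 CPM and was not measured. The summing was chosen after the values were seen.

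**Figure D2:**
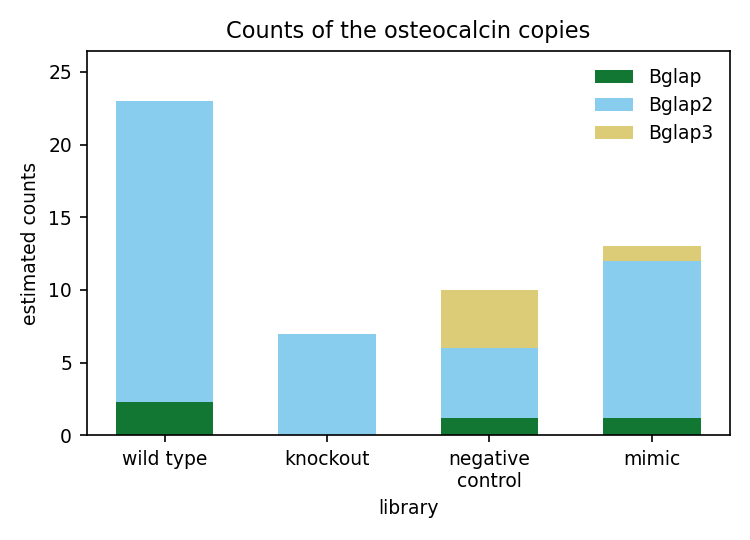
Estimated counts of Bglap, Bglap2 and Bglap3 stacked for each of the 4 libraries, starting at 0, with 1 library per bar and no error bar. The stack reaches 23 (wild type), 7 (knockout), 10 (negative control) and 13 (mimic) counts, with most counts assigned to Bglap2.

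Runx2, the factor required for the osteoblast lineage, lies on chromosome 17 at 44495987 to 44814797. It had 692 (wild type), 496 (knockout), 354 (negative control) and 559 (mimic) counts. The wild-type library was highest and the negative-control library lowest. The knockout library was lower than the wild-type library by less than 2-fold, at a log2 ratio of -0.47 (-0.64 to -0.30). Against the untransfected knockout cells the negative control had a ratio of -0.65 (-0.85 to -0.45). The mimic library stood above the negative control at 0.75 (0.56 to 0.95) and close to the untransfected cells at 0.10 (-0.07 to 0.28).

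Dlx5, a homeobox factor that acts upstream of and beside Runx2, lies on chromosome 6 at 6877801 to 6882068. Its counts were 71, 31, 17 and 21 in the wild-type, knockout, negative-control and mimic libraries. It was at least 2-fold lower in the knockout than in the wild-type library, with a log2 ratio of -1.16 (-1.84 to -0.56). The negative control was lower again, at -0.99 (-1.98 to -0.13) against the untransfected cells, just short of 2-fold. Mimic and negative control could not be separated at these counts, at 0.38 (-0.59 to 1.41). Dlx6, the neighbouring and related homeobox gene, had 2 counts with the wild type and 0 with the knockout genotype.

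Sp7, osterix, which acts downstream of Runx2 and is largely restricted to cells of the osteoblast lineage, lies on chromosome 15 at 102356603 to 102367035. Its counts were 4 (wild type), 19 (knockout), 1 (negative control) and 11 (mimic). These are small numbers, and the highest, in the knockout library, is 1.08 CPM. The log2 ratio of knockout to wild type was 2.01 (0.67 to 4.27), opposite in direction to those of Runx2 and Dlx5. The negative control was lower than the untransfected cells at -3.44 (-9.79 to -1.76). That value rests on 1 count and on the prior of 1 count, and it was -2.08 with a prior of 5 counts and -0.71 on log2(TPM + 1). Between mimic and negative control Sp7 was under 1 CPM in both libraries and was not measured. In the authors' deposited table this pair had a log2 ratio of 3.46 with a false discovery rate of 0.0142 for the reads of the 2 libraries. The interval of mimic against untransfected knockout cells held 0, at -0.80 (-2.07 to 0.29).

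Enpp1, which makes pyrophosphate outside the cell, lies on chromosome 10 at 24637914 to 24712159. Its counts were 1666 (wild type), 1045 (knockout), 1006 (negative control) and 1090 (mimic). All 3 knockout libraries were thus below the wild-type library and close to one another. The log2 ratio of knockout to wild type was -0.66 (-0.78 to -0.55). Negative control against knockout gave -0.22 (-0.35 to -0.09), mimic against negative control 0.21 (0.09 to 0.34) and mimic against knockout -0.01.

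Alpl, tissue-nonspecific alkaline phosphatase, which removes pyrophosphate and is a common marker of osteogenic cells, lies on chromosome 4 at 137741731 to 137796384. Counts of 30 (wild type), 70 (knockout), 32 (negative control) and 30 (mimic) were found. The untransfected knockout library alone was high, with a log2 ratio of 1.21 (0.60 to 1.90) to the wild-type library. Both transfected libraries were lower than it, the negative control at -1.27 (-1.95 to -0.67) and the mimic at -1.26 (-1.96 to -0.65). Mimic and negative control had equal levels, at 0.00 (-0.77 to 0.77). Of the 2 enzymes with opposite actions, Enpp1 was thus below and Alpl above its wild-type level in the knockout library.

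Phex, a membrane peptidase of osteoblasts and osteocytes whose loss causes phosphate wasting, lies on the X chromosome at 157162075 to 157415286. With 6 (wild type), 0 (knockout), 1 (negative control) and 0 (mimic) counts, it was not measured. The exact counting interval of knockout against wild type ended at a log2 ratio of -0.22.

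**Figure D3:**
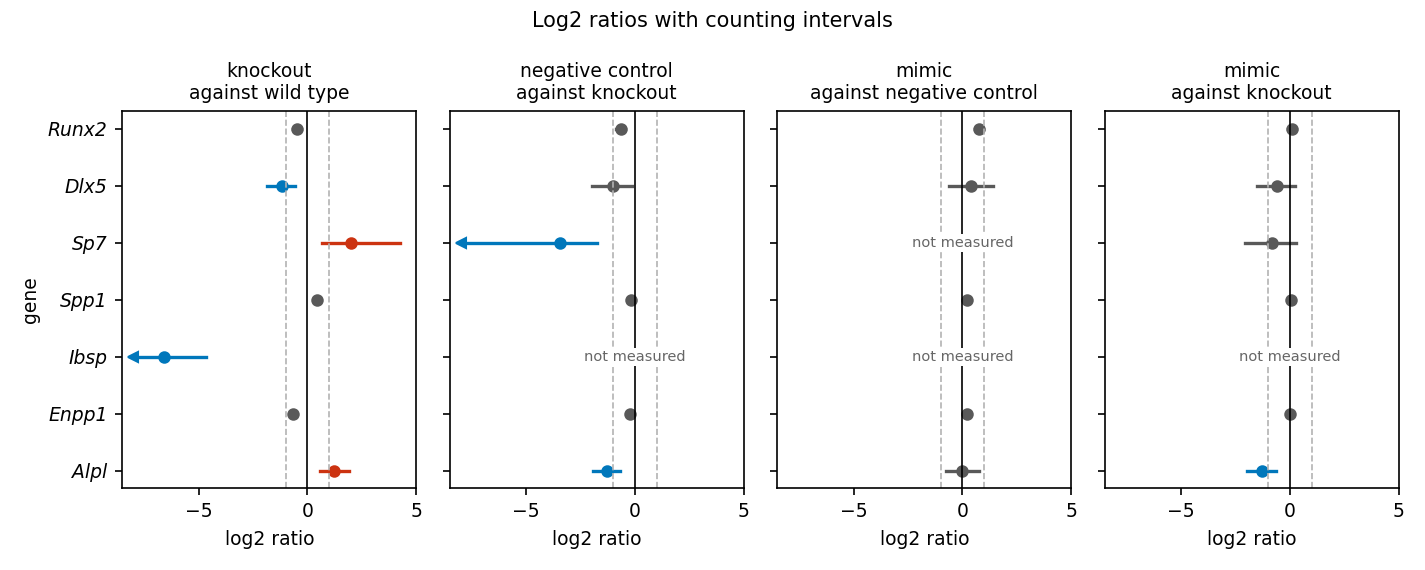
Log2 ratio (points) and exact 95% counting interval (lines) of the 7 genes measured in at least 1 comparison, in 4 panels, 1 per comparison, with red for higher, blue for lower, grey for neither, dashed lines at 2-fold and arrowheads where an interval runs past the axis. Ibsp is drawn at its fitted ratio, which depends on the prior of 1 count. Between negative control and knockout all 6 measured genes lie below 0, and between mimic and negative control all points lie at or above 0.

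The measured genes of the group had lower values in the negative-control library than in the untransfected knockout cells. Ibsp, Bglap and Phex were not measured, with 0, 1.2 and 1 counts in the negative-control library against 0 each in the knockout library. Between these libraries 6 genes were measured, and all 6 ratios were below 0, with a median of -0.82 against 0.00 for all 12532 genes. Sp7 and Alpl were called lower and none was called higher, where 0.718% of all measured genes were called lower and 0.295% higher. The mimic comparison asks what changes when miR-26a is given back, with the negative control as reference. It measured 5 genes, none of which was called in either direction, beside 0.855% of all genes called higher and 0.352% lower. Their median was 0.21, and that of all 12512 genes -0.01. The largest ratio was that of Runx2, 0.75. Both comparisons contain the negative-control library, so a low value in that library alone gives a ratio below 0 in the first and above 0 in the second. Against the untransfected knockout cells instead, the mimic library had 1 of 6 genes called lower, Alpl, and none higher, with a median of -0.31. The shares over all 12536 genes were 0.471% lower and 0.263% higher.

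Genes that act with these 9 were taken from lists by function. Of 17 measured other regulators of osteoblast transcription, 1 was higher in the knockout than in the wild-type library and 2 were lower, with a median log2 ratio of -0.14. Lef1, a Wnt-responsive factor, was higher at 1.33 (0.27 to 2.72), with 24 against 9 counts. Msx1, a homeobox factor, was lower at -1.25 (-1.71 to -0.84), and so was Zfp521, a zinc finger antagonist of Runx2, at -1.41 (-1.55 to -1.27). Between mimic and negative control 1 of 17 was called, Dlx3, a homeobox relative of Dlx5, at 1.30 (0.35 to 2.48). Dlx3 had 24 (wild type), 24 (knockout), 12 (negative control) and 29 (mimic) counts, so the negative-control library was the low one, as for Runx2 and Sp7.

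All 12 measured other proteins of bone matrix had lower values in the knockout than in the wild-type library, with a median of -0.90, and 3 of them were called lower and none higher. Col1a2, a chain of type I collagen, had a log2 ratio of -1.05 (-1.06 to -1.04), Postn, periostin, of -1.09 (-1.11 to -1.06), and Tnn, tenascin N, of -1.90 (-2.15 to -1.67). Spp1 did not share this direction. Between mimic and negative control none of the same proteins was called, with a median of 0.14. The largest ratio there was that of Omd, osteomodulin, at 0.62 (-0.15 to 1.45).

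Of 11 measured genes of phosphate and pyrophosphate handling besides Enpp1 and Alpl, 1 was called higher and 1 lower in the knockout library, with a median of 0.08. Nt5e (CD73), which makes adenosine from the AMP that Enpp1 releases, had 34 (wild type), 212 (knockout), 170 (negative control) and 229 (mimic) counts. Its ratio of knockout to wild type was 2.62 (2.12 to 3.22). Enpp3, a relative of Enpp1, was lower at -1.81 (-2.85 to -1.01). Ank, the exporter of pyrophosphate, had a ratio of -0.49, short of 2-fold like Enpp1. None of these genes was called between mimic and negative control, where the highest ratio was that of Smpd3, a sphingomyelinase needed for mineralization, at 0.67 (0.32 to 1.03).

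Receptors that bind osteopontin and bone sialoprotein were all measured, and none of the 9 was called between knockout and wild type. Their median was 0.27 with 8 of 9 above 0, the highest being the integrin subunits Itga4 at 0.89 (0.76 to 1.02) and Itga9 at 0.56 (0.46 to 0.67). Bone morphogenetic proteins and their receptors, which induce Runx2, Dlx5 and Sp7 in osteogenic cells, had a median of -0.47 over 9 measured genes. Acvr2a, an activin and BMP receptor, was the 1 called lower, at -1.03 (-1.17 to -0.90). It had 1456, 705, 548 and 1000 counts in the wild-type, knockout, negative-control and mimic libraries. Between mimic and negative control its ratio was 0.96 (0.81 to 1.12), just short of 2-fold.

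**Figure D4:**
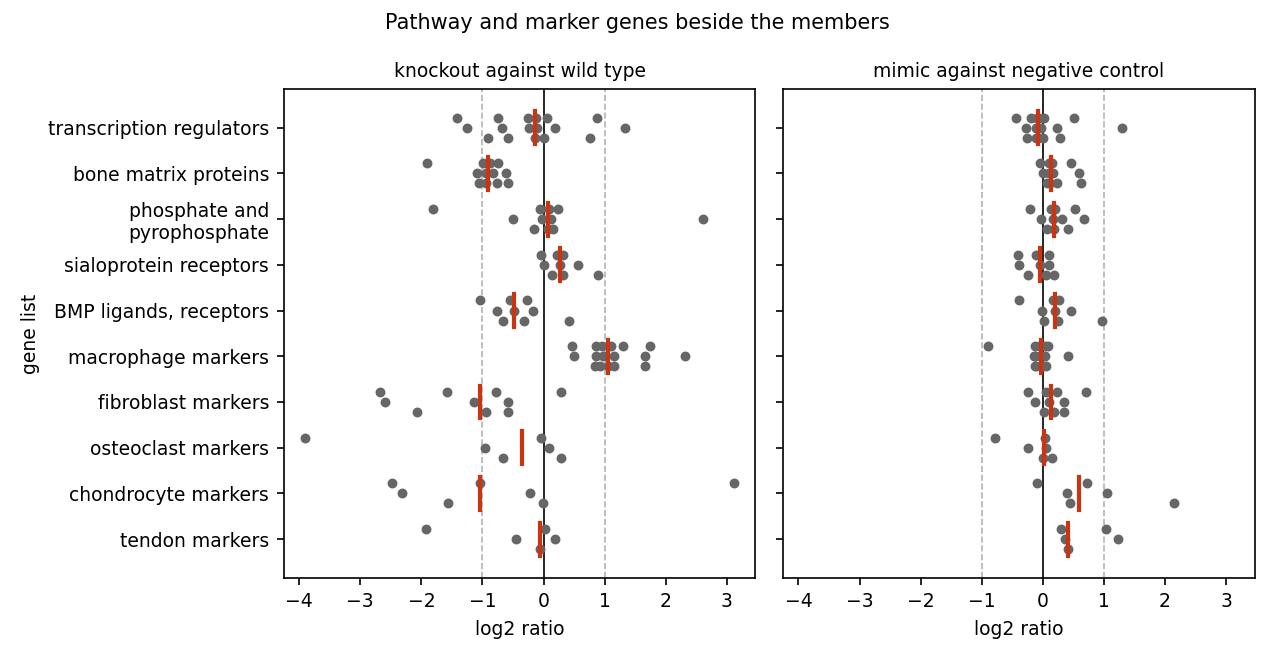
Log2 ratios of measured genes (grey points) in lists of pathway genes and cell type markers, knockout against wild type on the left and mimic against negative control on the right, with the median of each list as a red bar and dashed lines at 2-fold. On the left macrophage markers lie above 0 with a median of 1.06 and bone matrix proteins below 0 with a median of -0.90. On the right chondrocyte markers have a median of 0.59 and tendon markers of 0.41. The other medians on the right lie between -0.09 and 0.20.

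Markers of several cell types differed between the knockout and wild-type libraries, though not all in the same direction. The labelled cell type, fibroblast, had its markers present, with Col1a1 at 5820.98 TPM and Pdgfrb at 492.29 TPM in the wild-type library, and macrophage markers were abundant as well. The summed TPM of 18 macrophage markers was 24463 (wild type), 35898 (knockout), 34710 (negative control) and 34640 (mimic). All 17 measured markers had higher values in the knockout than in the wild-type library, 9 of them called higher, with a median of 1.06, and Cd163 was the 1 at 0 in the knockout library. The summed TPM of 11 fibroblast markers was 11693, 4941, 4788 and 5594 in the same order. Of 10 measured fibroblast markers 5 were called lower and none higher, with a median of -1.04. Of the measured genes of the group, Spp1, Sp7 and Alpl lay above 0 in this comparison, and Enpp1, Runx2, Dlx5 and Ibsp below 0 like most fibroblast markers. The bone matrix proteins also lay below 0, and their list shares Col1a1 and Dcn with the fibroblast list. Col1a1 is on the osteoblast list below as well, so its level does not set fibroblasts apart from osteoblasts. Among the knockout libraries the macrophage sum changed little, and Spp1 stayed above its wild-type level in all of them. Alpl did not, with 1.49 (wild type), 3.35 (knockout), 1.34 (negative control) and 1.35 (mimic) TPM. Sp7 had 0.17, 0.7, 0.04 and 0.4 TPM in the same order. In bulk RNA fewer cells of a type and less RNA per cell cannot be told apart, and the part of cell makeup in these ratios was not tested.

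Markers of some other cell types differed too. Tendon markers shifted little as a list, with a median of -0.06 and 1 of 5 measured called lower, Tnmd at -1.93. Of 4 measured adipocyte markers all 4 were lower in the knockout library, with a median of -4.92. Adipoq, the fat cell hormone adiponectin, had 204 (wild type), 1 (knockout), 5 (negative control) and 0 (mimic) counts, and Cfd, adipsin, had 154, 1, 1 and 1 in the same order. The summed TPM of the 5 adipocyte markers in the table was 273.01, 64.88, 66.17 and 62.84, most of it from Fabp4. Of 7 measured chondrocyte markers 4 were lower in the knockout library and 1, Col2a1, was higher, at 3.12 with 206 against 23 counts, and the summed TPM of the 11 in the table was 508.69 (wild type), 92.41 (knockout), 54.04 (negative control) and 89.06 (mimic). Comp, cartilage oligomeric matrix protein, carried most of this sum, with 491.02, 80.57, 45.02 and 74.87 TPM, and the other 10 markers summed to 17.67, 11.84, 9.02 and 14.19 TPM. Of 6 measured osteoclast markers 1 was lower, Mmp9 at -3.90, and none higher, with a summed TPM of 667.07, 421.03, 417.58 and 422.03 in the same order. Osteoblast markers went both ways. Of 10 such markers, which include 7 of the 9 genes described here, 7 were measured between knockout and wild type. Of these, 2 were higher in the knockout library (Sp7 and Alpl) and 3 lower (Ibsp, Dlx5 and Bglap2). Their median was -0.94, that of Col1a1. Of the 10, 3 were at 0 in the knockout library (Ibsp, Bglap and Phex), 1 in the negative-control library and 2 in the mimic library. Bglap and Phex were already low with the wild type, at 2.29 and 6 counts. Ifitm5, a protein of mineralizing osteoblasts that is not among the 9, had 3, 2, 1 and 2 counts. Of 6 osteocyte markers 4 were in the table, and 2 were measured between knockout and wild type. Pdpn lay at 0.60 (0.50 to 0.70) and Fam20c at 0.85 (0.73 to 0.97), both above 0 and short of 2-fold. Dmp1, on the same list, had the lower counts given above and was not measured.

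Genes with the most similar pattern over the 4 libraries were sought for the 3 genes with at least 10 CPM, by the distance between log2 values centred on their mean, among 9911 genes. For Spp1 the nearest was Mitf, a transcription factor of macrophages and pigment cells, with 11.59, 14.21, 13.32 and 15.03 TPM, followed by Tep1 and Hspa4l. Runx2 lay nearest to Ldlrad4, with 23.68, 15.94, 12.24 and 19.31 TPM, then Cdk16 and Ccng2. For Enpp1 it was Efemp1, a fibulin of the extracellular matrix, with 268.75, 153.75, 138.24 and 157.58 TPM, then Ctnnd1 and BC034090. A likeness over 4 libraries is a description, and many genes share so short a pattern.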

How the data were processed

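RNA sequencing tables of 4 libraries of cultured mouse shoulder capsule cells were used, grouped by their labels. Per the submitters' processing notes FastQC, HISAT, Bowtie2 and the builds GRCm38.p6 and mm10 were used. The quantification tool is not given in the sources used here, nor whether counting was stranded. Estimated counts were deposited by the authors, of which 4.99% to 5.28% per library have decimals, beside TPM values. FPKM values deposited by the authors differ from TPM by 1 factor per library, and their normalized counts are a signal obtained by rounding estimated counts up and dividing them by 1 size factor per library. Neither was used. The log2 ratios deposited by the authors equal unscaled count ratios with a count of 0 set to 0.01, and their p-values and false discovery rates come from PoissonDis, per the file headers.

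Totals were 18198033, 17598763, 19392655 and 18584404 estimated counts in the wild-type, knockout, negative-control and mimic libraries, and the precision of a value follows from that gene's count. Scaling used edgeR 4.0.16 TMM factors of 0.978, 1.00, 1.02 and 0.997. A log2 ratio had a prior of 1 count, scaled to the library, and counts were rounded for the intervals, since the files hold estimated rather than whole counts. The rule was run on the whole table and tested on simulated data. Those data held counting error only, and their changed genes all had more expected counts than the genes called among the 9. The simulation therefore does not cover the calls reported here. All 9 genes were named. Examples from each list were picked among the genes called or with the 3 largest ratios of knockout to wild type or the 2 largest of mimic to negative control, and not all such genes are named, while Ifitm5, Cd163, Col1a1, Pdgfrb, Dlx6 and the neighbours of Ibsp were named after their values were seen. The 9 genes and the lists were chosen with earlier results of these data known. MiR-26a was not measured, which leaves the genotype labels unchecked. Alternatives were DESeq2 1.42.0 size factors, other filters, priors and folds, and TPM. Software was Python 3.11.15 (matplotlib 3.10.9, scipy 1.17.1, pandas 2.3.3, numpy 2.4.6) and R 4.3.3.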

Additional observations from a re-analysis of the deposited data

How the results depend on the processing

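Calls were made again with DESeq2 size factors, total counts, no filter, a filter of 5 CPM, priors of 0.5 and 5 counts, log2(TPM + 1) and a threshold of 1.5-fold. The counts of genes called higher and lower among the 9 were within 1.5 times the reported ones in 54 of 64 cases, and among 161 recomputed log2 ratios no called one changed sign. The 64 cases include those with a reported count of 0, as in both directions between mimic and negative control. There 0 against 0 is taken as the same, so that 54 of 64 overstates how steady the calls are. With at least 5 CPM, 0 genes were higher and 1, Ibsp, was lower between knockout and wild type. Of all genes measured, 5.01% were higher and 5.01% lower there. Between negative control and knockout 0 of the 9 were lower, beside 0.306% of all measured genes. Between mimic and knockout 0 of the 9 were lower, beside 0.0833%. This is because Dlx5, Sp7 and Alpl lie under 5 CPM in every library. On log2(TPM + 1), which understates the change of low genes, 0 of the 9 were higher between knockout and wild type. The share over all measured genes was 3.26%. Between negative control and knockout 0 of the 9 were lower, beside 0.192%, and between mimic and knockout 0, beside 0.0877%. The ratio of Sp7 between knockout and wild type was 0.54 on this scale. At 1.5-fold, 4 genes were lower between negative control and knockout (Runx2, Sp7, Alpl and Dlx5) beside 2.71% of all measured genes, 1, Runx2, was higher between mimic and negative control beside 2.87%, and Enpp1 joined Ibsp and Dlx5 as lower between knockout and wild type beside 13.2%. With no filter 1 gene, Sp7, was higher between mimic and negative control, beside 0.888% of all genes. Phex was also lower between knockout and wild type at that setting, beside 6.56%. With a prior of 0.5 count Dlx5 was also lower between negative control and knockout, beside 0.758% of all measured genes. The fitted ratio of Ibsp was -4.33 with a prior of 5 counts and -2.88 on log2(TPM + 1). Acvr2a was not called lower between knockout and wild type with total counts. No paired analysis was possible because each group has 1 library, and for the same reason no replicate could be left out. Depth limits Sp7, Phex, Dmp1 and the osteocalcin copies, which have at most 23 counts in any library.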

Other observations

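Few genes had exactly 0 counts in the knockout libraries where the wild type had many. Of 11565 genes with at least 50 counts in the wild-type library, Ibsp was the 1 gene with 0 counts in all 3 knockout libraries, and of 12480 genes with at least 20 counts Xlr3a, with 20.48 counts, was the only other. Both thresholds were chosen after the values were seen. Losses of similar size that leave a few counts are not in this tally, such as Adipoq, with a log2 ratio of -6.67 between knockout and wild type, and Cfd, with -6.27, beside a fitted -6.59 for Ibsp.

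Beyond the 9 genes, several skeletal genes had their lowest value in the negative-control library. Acan, the cartilage proteoglycan aggrecan, had 26 (wild type), 22 (knockout), 5 (negative control) and 24 (mimic) counts. Its log2 ratio was -2.09 between negative control and knockout and 2.15 between mimic and negative control. Scx, the tendon transcription factor scleraxis, had 86, 62, 27 and 53 counts in the same order, with ratios of -1.33 and 1.04. Pdpn, a membrane glycoprotein of osteocytes and other stromal cells, had 1349, 2031, 1017 and 1672 counts, with ratios of -1.16 and 0.81. The ratios of each pair share the negative-control library, and these genes were picked after their values were seen. Between mimic and negative control 2 of 6 measured chondrocyte markers were called higher, Acan and Col2a1. Of 5 measured tendon markers 2 were called higher, Scx and Tnmd, and neither list had a gene called lower. The share called higher over all measured genes was 0.855%.

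In the authors' deposited table the log2 ratio of Ibsp between knockout and wild type is -13.23. That size is set by the value of 0.01 that stands for a count of 0, and it is not comparable with the fold bound given above. The same substitution gives Phex -9.23 for 6 counts against 0, with a deposited false discovery rate of 0.0369.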
